A study of Homo sapiens with 2 samples.

Results

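Some transcripts had antisense reads enriched, as mapped, at more than 1 place in their 3′-UTR, and these loci are described here. The loci are regions of a transcript in which GRO-seq reads were enriched on the antisense strand. A locus was included when its transcript had 2 or more loci in the authors' deposited table and its midpoint lay at or past the end of the coding sequence in GENCODE 44. It also had to have no annotated gene on the opposite strand over its exonic bases, and its gene symbol could not begin with ZNF. These criteria gave 279 loci on 134 transcripts, of 2016 loci on 1805 transcripts in all. No value of a locus entered the choice, but each locus of the table had itself been selected upstream on its enrichment, as had the number of loci per transcript. The enrichment values are therefore given as a description, with no test.

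GRO-seq labels the RNA that engaged RNA polymerases extend in isolated nuclei, so that reads mark the place and the strand of ongoing transcription. The assay was run on MDA-MB-231 cells in 2 biological replicates, with no treatment named in the labels. MDA-MB-231 is an established line of triple-negative breast cancer, called MDA-Par by the study where the unselected parent is meant. Each replicate had 10000000 cells. There was 1 condition and 1 cell line, so no groups were compared. The table has 1 value per locus and no column per library, so the depth of the libraries is unknown, their spread was not measured, and the identity of the line could not be checked against marker genes.

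Antisense transcripts that start within a gene can pair with the mRNA of that gene and alter its splicing, stability or translation. Long human 3′-UTRs often hold Alu elements, short interspersed repeats derived from the 7SL RNA of the signal recognition particle. An Alu can lie in the direction of the mRNA, called forward here, or against it, called inverted. Where 1 mRNA holds both, the copies can fold on each other into double-stranded RNA, which is the classical substrate of the adenosine deaminase ADAR.

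A few sequences are shown first, because the uniqueness of a sequence bears on where a read could be placed. Of the 279 loci, 10 held no 24-mer with 10 or more copies on both strands of the 24 chromosomes of hg38. The 30 central bases of those with the highest logASR, the enrichment measure explained below, are printed from 5′ to 3′ on the mRNA strand in hg38. They are in lower case, since no part of them was repeated.
OSBPL10 locus 1, chr3:31661421-31661450, minus strand: agagccttgcaggatggagcacctctggga
TMEM59 locus 2, chr1:54027357-54027386, minus strand: gaccccctctcatagtaatgttttcaaagc
HNRNPU locus 1, chr1:244852272-244852301, minus strand: gataaaaatggcacccagaaaaatgttaaa
BMPR2 locus 2, chr2:202564231-202564260, plus strand: tcattaactcctagaatttgagattatatt
BMPR2 locus 1, chr2:202562589-202562618, plus strand: gttttatatgtagaaaagtggggtcctttt

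Every 24-mer of these windows occurred 1 time in the genome. They lie in exons of the 3′-UTR.

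The 390 loci on the 179 transcripts with 2 or more loci were accounted for as follows. GENCODE 44 lacks the transcripts of 15 of them, and 16 reached beyond the GENCODE 44 transcript. Of the 359 that could be placed, 8 had their midpoint in the coding sequence, 2 in the 5′-UTR and 349 in the 3′-UTR. An opposite-strand gene lay over 55 of the 349, and 15 others belonged to ZNF genes. Among the included loci, the midpoint closest to the end of the coding sequence lay 209 nt past it, in MCUR1. Over the 179 transcripts with 2 or more loci, the nearest midpoint within the coding sequence lay 760 nt before its end, in NFE2L3, with a logASR of 1.35.

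Most transcripts held a pair of these loci. There were 96 transcripts with 2, 18 with 3, 3 with 4 and 1 with 5. The other 16 held 1, because the remaining loci of the transcript were not placed or lay in the coding sequence or opposite an annotated gene. All 279 loci lay within 1 exon. They were found on 23 chromosomes. Chromosome 12 held 43 of them on 19 transcripts, or 15.4%, compared with 7.15% of all 1916 placed loci.

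The 3′-UTRs were long. Their length ranged from 498 to 32873 nt with a median of 6678 nt, whereas the median was 3208 nt for 1006 transcripts with a single locus that met the same criteria otherwise. The loci described numbered 0.260 per 1000 nt of 3′-UTR in transcripts with several loci, and single loci 0.263 in those with 1. Each set was defined by its number of loci, and 3′-UTRs without a locus are in neither. The near equality therefore does not show how densely 3′-UTRs carry loci. Alu-like stretches, found by alignment to 7SL RNA, numbered 0.590 and 0.489 per 1000 nt, in the same order. The loci themselves covered a median of 11.3% of the 3′-UTR. Their lengths ran from 101 to 1863 nt, with 329 nt as the median, and the median of the single loci was 302 nt. Along the 3′-UTR, the midpoint of 70 loci fell in the 5′-most of 3 equal parts, that of 110 in the middle and that of 99 in the last.

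**Figure D1:**
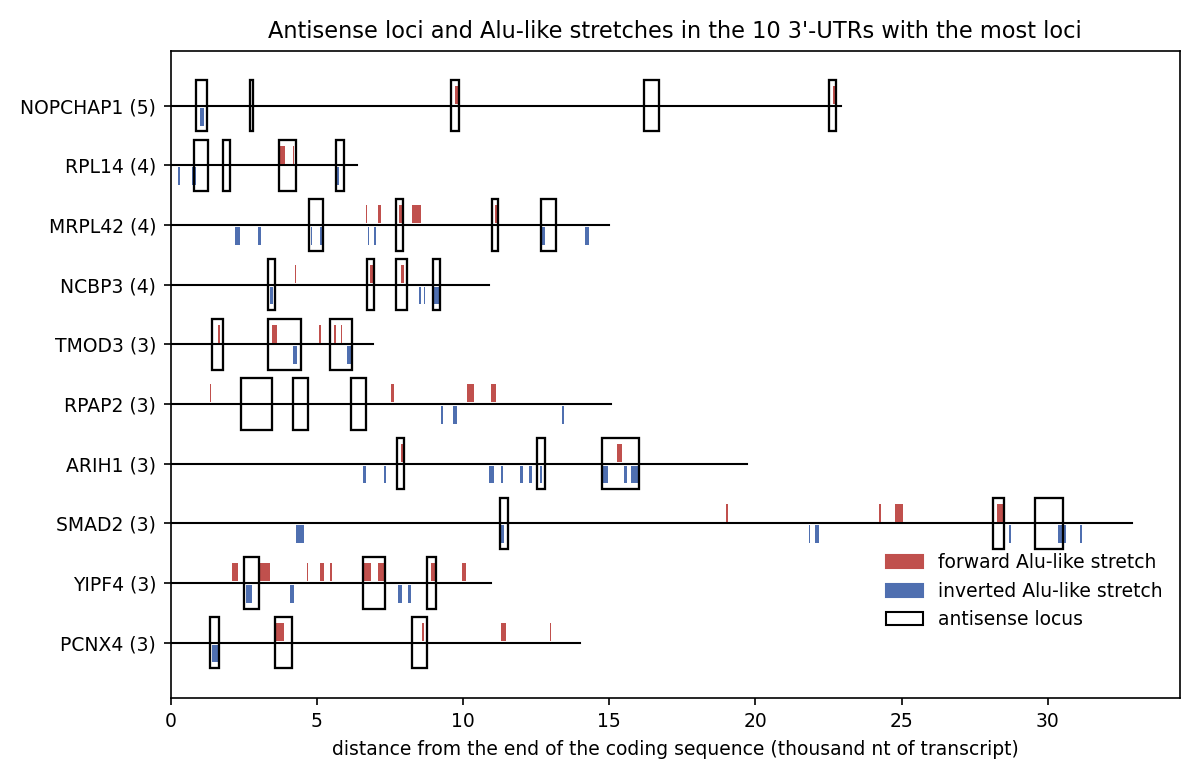
Each line is a 3′-UTR, drawn from the end of the coding sequence in units of 1000 nt of transcript, with the number of loci beside the gene symbol. Open boxes are the antisense loci, red blocks forward and blue blocks inverted Alu-like stretches. Boxes of NOPCHAP1 spread over nearly the whole 22932 nt, those of RPAP2 hold no block, and most other boxes hold at least 1.

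The 10 transcripts with the most loci are drawn in the map of antisense loci and Alu-like stretches. NOPCHAP1, which encodes a factor of small nucleolar RNP assembly, had 5 loci in a 3′-UTR of 22932 nt. They began 850, 2720, 9592, 16197 and 22522 nt past the coding sequence, and the last ended 189 nt before the end of the transcript. RPL14, a protein of the large ribosomal subunit, had 4 loci in 6358 nt, which covered 24.6% of the 3′-UTR. MRPL42, a mitochondrial ribosomal protein, and NCBP3, a cap-binding protein, also had 4. TMOD3, which caps the pointed ends of actin filaments, RPAP2, a phosphatase of the RNA polymerase II tail, and the ubiquitin ligase gene ARIH1 had 3. SMAD2, a transducer of TGF-β signals, the Golgi protein gene YIPF4 and PCNX4 had 3 as well. The 3′-UTR of SMAD2 was the longest of the 134, and its loci covered 4.93% of it.

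The gaps between neighbouring loci ranged from 439 to 16587 nt, with a median of 1563 nt over 145 pairs. Of these, 30 were under 1000 nt and 10 over 5000 nt. The closest pairs were in SFT2D2 (439 nt), FEM1A (477 nt) and RPL14 (516 nt). The most distant were in SMAD2 (16587 nt), CNKSR3 (12696 nt) and RPS6KA5 (12483 nt). FEM1A encodes a substrate receptor of a cullin ubiquitin ligase, and RPS6KA5 encodes the kinase MSK1. Loci were built upstream from windows of 500 nt, and neighbouring windows were merged. There were 2 gaps under 500 nt.

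**Figure D2:**
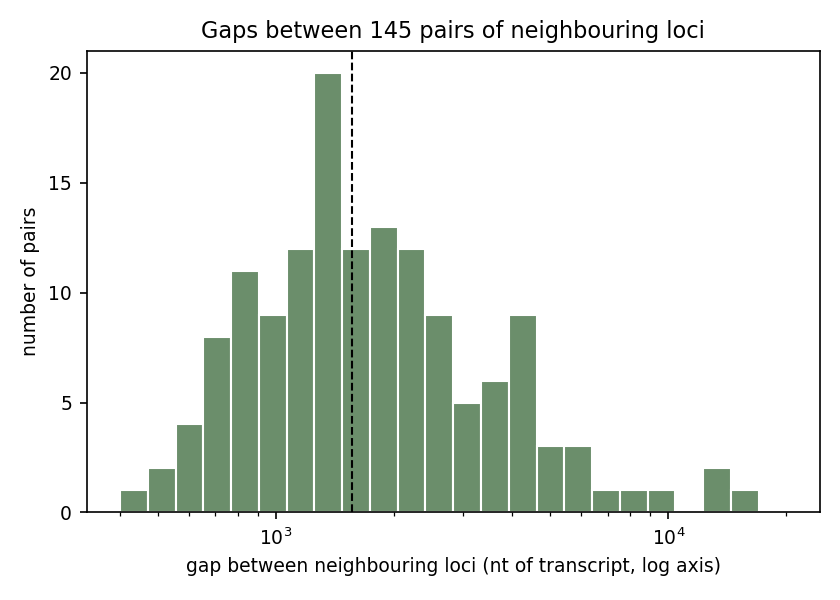
The number of pairs of neighbouring loci is plotted against the gap between them in nt of transcript on a log axis. The dashed line is the median of 1563 nt, and the 145 gaps run from 439 to 16587 nt.

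The enrichment of each locus was given as a logASR, the natural log of an odds ratio. It compares the odds of antisense against sense reads in the locus with those in the rest of the same transcript. All logASR below are values of the authors' deposited table, and their standard errors were derived from the logASR and its P value. Over the 279 loci the logASR ranged from 0.343 to 5.84, with a median of 2.07, an odds ratio of 7.94. The median standard error was 0.396, at which the smallest of the 4 read counts lies between 7 and 25. The 979 single loci with a usable standard error had a median logASR of 3.05, with a median standard error of 0.558. The reference of a locus on a transcript with several loci includes the antisense reads of its neighbours, whereas that of a single locus does not, and the part of this in the lower median was not tested.

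The thresholds of 0.5 for logASR and 0.01 for q were passed by 276 of the 279 loci, and by 97.4% of all loci in the table. The exceptions were NOPCHAP1 locus 4 (q = 0.0245), ADAMTS4 locus 2 (q = 0.0663) and a locus of PEX26 with a logASR of 0.754 (q = 0.0342). The stricter thresholds, 1 and 1e-05, were passed by 176 loci, or 63.1%, beside 60.9% of all loci. Both shares are near those of the whole table. Per the study, loci were selected on both measures, although not all deposited values pass the looser thresholds. The study applied the stricter thresholds to RNA-seq values, after a filter on RNA polymerase II binding, and not to these GRO-seq values. Loci that passed them here are therefore not its final set of antisense RNAs.

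The highest logASR was that of HMGB1 locus 1, at 5.84 (95% interval from 4.73 to 6.95). HMGB1 encodes an abundant chromatin protein. Its locus 2 had a logASR of 3.62 (2.25 to 4.99), so that the intervals of the 2 loci overlapped. OSBPL10, a member of the oxysterol-binding protein family, followed with 5.46 (4.34 to 6.57). SPATS2L locus 2 had a logASR of 5.10 (4.01 to 6.19). For each of these 3 loci the smallest read count was between 4 and 12. They were therefore large ratios in which at least the smallest count was low, and the other counts are unknown.

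Among the lowest values, NOPCHAP1 locus 4 and RPAP2 locus 3 had higher smallest counts. NOPCHAP1 locus 4 had a logASR of 0.343 (0.0453 to 0.641) with a smallest count between 44 and 173. ADAMTS4 locus 2 had 0.580, with an interval from -0.0356 to 1.19 that included 0. ADAMTS4 encodes an aggrecanase. RPAP2 locus 3 had 0.745 (0.327 to 1.16), and the smallest count was between 22 and 87.

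**Figure D3:**
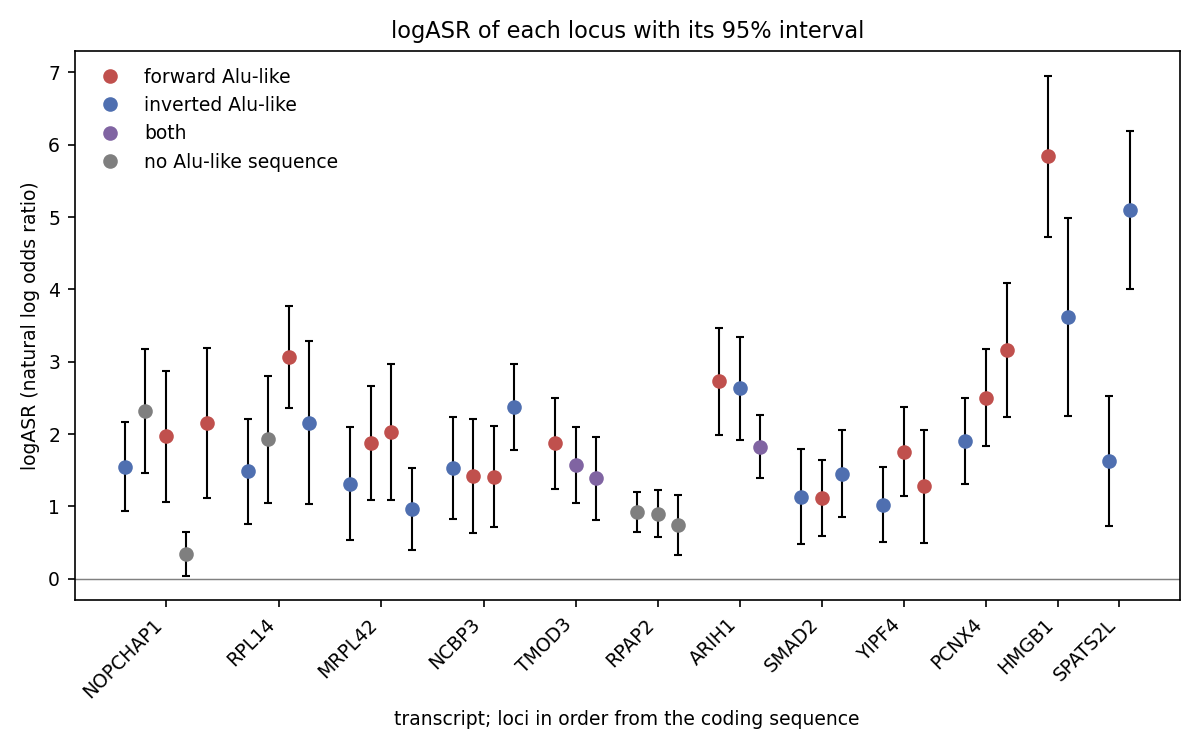
The logASR, a natural log odds ratio, is plotted for the loci of the 10 transcripts with the most loci and of HMGB1 and SPATS2L, in order from the coding sequence. Points are coloured by the direction of Alu-like sequence and bars are 95% intervals from counting error. In NOPCHAP1 locus 4 lies at 0.343, below the other 4, which lie between 1.55 and 2.32.

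The spread of logASR within a transcript was compared with that between transcripts. Among the 263 loci on the 118 transcripts with 2 or more, the pooled SD within a transcript was 0.577, and the SD of the transcript means was 0.747. The median standard error over all 279 loci was 0.396. It is a median, whereas a pooled SD gives weight to a few wide pairs, so the 2 are not directly comparable. Neighbours share most of their reference and are not independent. Their difference had a median size of 0.497 and reached 3.48. The locus farther from the coding sequence was higher in 73 pairs and lower in 72.

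The 95% intervals of neighbours failed to overlap in 7 of 145 pairs, or 4.83%. Among 191 pairs of neighbouring placed loci with usable standard errors, which include these 145, there were 8, or 4.19%. The largest difference among the 7 was in SPATS2L. Its locus 1 had a logASR of 1.62 and its locus 2 one of 5.10, and the 2 were 1222 nt apart. In VPS53, a subunit of a tethering complex at the Golgi, the logASR was 1.03 at the first locus and 2.45 at the second. HOOK3, an adaptor of dynein, had 1.63 at the first locus, 3.31 at the second and 1.63 at the third. The intervals of its loci 2 and 3 overlapped. The first locus was the higher in 2 other genes. DCTN5, a dynactin subunit, had 2.94 at the first locus and 1.47 at the second, and RPL37, a ribosomal protein, had 3.55 and 2.02. The remaining 2 pairs were those that NOPCHAP1 locus 4 formed with loci 3 and 5, which had a logASR of 1.97 and 2.16. Except for SPATS2L, RPL37 and NOPCHAP1, these pairs overlapped at the level of 99%.

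**Figure D4:**
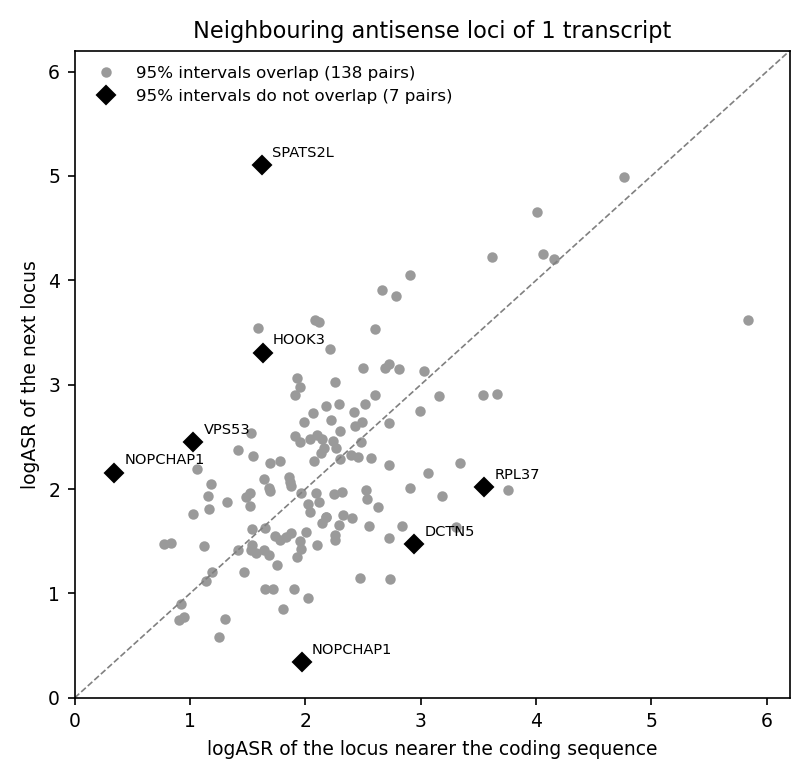
Each point is a pair of neighbouring loci, with the logASR of the locus nearer the coding sequence on the horizontal and that of the next locus on the vertical axis. The dashed line marks equality; 73 pairs lie above and 72 below it, and black diamonds are the 7 pairs whose 95% intervals do not overlap.

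Within the 10 transcripts with the most loci, the values were as follows. NOPCHAP1 had a logASR of 1.55, 2.32, 1.97, 0.343 and 2.16 from the coding sequence on. Locus 4 alone stood apart, below the intervals of the others. RPL14 had 1.48, 1.93, 3.06 and 2.16, and the intervals of its loci 1 and 3 did not overlap. MRPL42 had 1.32, 1.87, 2.03 and 0.960, with overlapping intervals. NCBP3 had 1.53, 1.42, 1.41 and 2.38. The last of these was the highest, and its interval overlapped those of the others.

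TMOD3 had 1.87, 1.58 and 1.39, a range of 0.483 that is smaller than the width of any of its intervals. RPAP2 had 0.919, 0.901 and 0.745, a range of 0.174 with some of the smallest standard errors of the set, from 0.141 to 0.213. ARIH1 had 2.73, 2.63 and 1.83, and SMAD2 had 1.14, 1.12 and 1.45. YIPF4 had 1.02, 1.76 and 1.28. PCNX4 had 1.91, 2.50 and 3.16, again with overlapping intervals.

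Sequence like that of Alu repeats, at least 30 nt of alignment to 7SL RNA, was present in 247 of the 279 loci, or 88.5% (95% Wilson interval from 84.3 to 91.8, for counting error only). In single loci it was present in 851 of 1006, or 84.6% (82.2 to 86.7). It was forward in 150 loci, inverted in 80 and in both directions in 17, and did not reach 30 nt in 32. Some of the 32, such as DNAJC10 locus 1, overlapped an Alu-like stretch by less than that. Thus forward sequence alone was found in 53.8% of the loci and inverted sequence alone in 28.7%, beside 47.8% and 31.5% of single loci. The median logASR was 2.04 in forward, 2.08 in inverted and 1.84 in mixed loci, and 2.29 in those without.

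The ends of loci were compared with those of Alu-like stretches. This was done for the 58 of 279 loci in which a single stretch of at least 200 nt was found. The locus began a median of 6 nt before the stretch (quartiles -16 and 167, where a negative value is a start inside the stretch). It ended a median of 10 nt after it (quartiles -20.5 and 42). The 5′ end was within 50 nt of that of the stretch in 25 of these loci, and the 3′ end in 36. The 5′ ends therefore spread more widely, on the side toward the coding sequence. These distances were not compared with those of loci placed at random. Because the ends of loci were set to the first and last read upstream, they show where reads stopped.

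Neighbouring loci held Alu-like sequence in the same direction or in opposite directions. Of the 145 pairs, 45 were both forward, 13 both inverted and 42 opposite, and 45 had a locus with both directions or none. The count of opposite pairs was not compared with that of loci paired at random. On 55 of the 118 transcripts with 2 or more loci, both directions were present among the loci, while 44 had forward sequence alone, 15 inverted alone and 4 none. A stretch of at least 24 nt was shared letter for letter in the same direction by 29 pairs and in opposite directions by 34, and in one or the other by 56. For the opposite pairs the median shared stretch was 25.5 nt in opposite directions and 8 nt in the same direction. The exact sharing followed the direction of the Alu-like sequence.

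Over all pairs of loci on 1 transcript, neighbours or not, the longest stretches shared in the same direction were 46 nt in NOPCHAP1 (loci 3 and 5), 44 nt in PGBD4 (loci 1 and 2), and 39 nt in both HSPA4L (loci 1 and 2) and YIPF4 (loci 1 and 3). The longest shared in opposite directions were 57 nt in PLXNA3, which encodes a receptor for semaphorins, and 52 nt in RBM23, which encodes an RNA-binding protein. FEM1A, PCNX4 and WSB1 followed with 47 nt each, between loci 1 and 2. All 5 of the latter were longer than the longest in the same direction; loci on chromosome 8 were left out of this ranking, though not of the counts of pairs above.

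Not every Alu-like stretch of these 3′-UTRs was within a locus. The 134 3′-UTRs held 633 such stretches, of which 314 overlapped a locus by at least 30 nt. The share was 59.3% for forward stretches (201 of 339) and 38.4% for inverted ones (113 of 294). Of the 99 3′-UTRs that held both kinds, the forward share was the higher in 58, the inverted share in 19, and the shares were equal in 22. The lengths of the stretches were alike, with a median of 141 nt forward and 142 nt inverted. As the 3′-UTRs had been selected for having loci, these shares describe this set and were not tested.

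The shares also differed with the number of copies. Where the 24-mers of a stretch had a median of 100 or more copies in the genome, 159 of 225 forward stretches overlapped a locus (70.7%) and 77 of 194 inverted ones (39.7%). With 10 to 99 copies the shares were 47.2% and 45.5%, and with fewer they were 19.0% and 24.4%. In the 3′-UTRs with a single locus, the shares at 100 or more copies were 70.8% forward and 53.6% inverted. At 10 to 99 copies they were 50.8% and 35.6%, and with fewer 26.2% and 25.8%. The forward share was thus the higher in both sets from 10 copies on. These differences were not tested. How the mapping placed reads that fit several transcripts is not given in the sources used here, and its part in these shares was not tested.

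**Figure D5:**
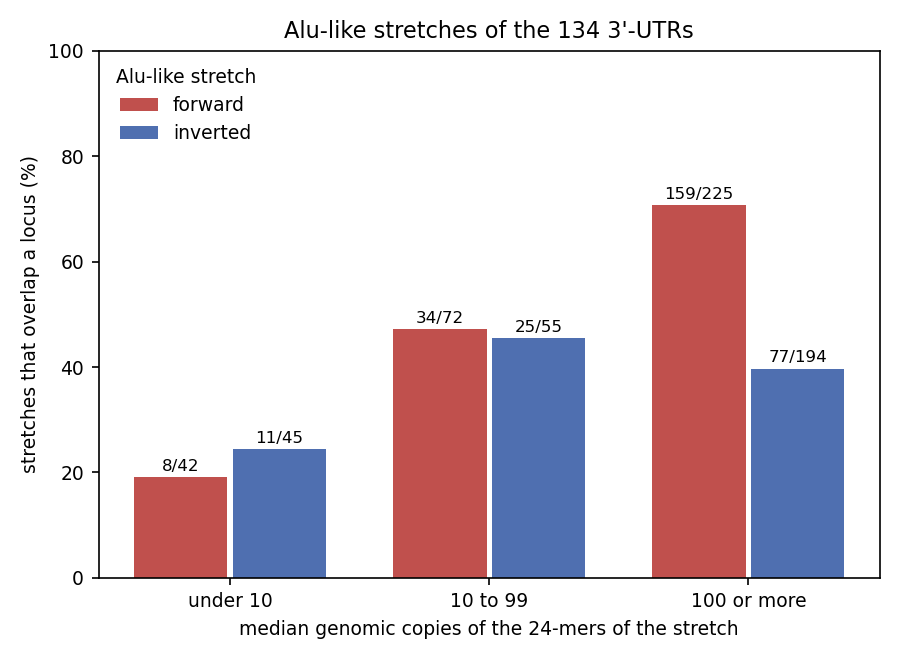
Bars give the percentage of Alu-like stretches in the 134 3′-UTRs that overlap a locus by at least 30 nt, for forward (red) and inverted (blue) stretches, by the median number of genomic copies of their 24-mers. Counts stand above the bars. At 100 or more copies the bars are 70.7% and 39.7%, and at 10 to 99 copies they are 47.2% and 45.5%.

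Repeated sequence was common in the loci as a whole. A median of 65.1% of the 24-mers of a locus had 10 or more copies in the genome, and 23.2% occurred 1 time. In 18 loci no 24-mer was unique. The median number of copies was 242 in forward loci and 68.5 in inverted loci, and 1 in those without Alu-like sequence. Single loci had a median of 69.2% repeated 24-mers.

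Of the 32 loci without at least 30 nt of Alu-like sequence, 22 held repeated 24-mers. They included 5 of the 6 loci with the smallest standard errors, namely all 3 of RPAP2, NOPCHAP1 locus 4 and SFT2D2 locus 1. Their logASR ranged from 0.343 to 0.948. Between 67.2% and 85.7% of their 24-mers were repeated. RPAP2 locus 3 and SFT2D2 locus 1, both chosen after their values were seen, had a stretch of 37 nt in common in opposite directions. Among the 22 loci, 8 shared a 24-mer with another of them on either strand.

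Returning to the 10 loci that lacked any repeated 24-mer, these belonged to 9 genes. OSBPL10 had the highest logASR of them, 5.46, and its second locus in the table ended past the transcript. TMEM59 locus 2 had 4.23 (2.61 to 5.85), and HNRNPU locus 1, in the gene of a nuclear RNA-binding scaffold protein, had 4.16 (2.63 to 5.68). Their smallest read counts were 2 to 5 and 2 to 6. BMPR2, the type II receptor of bone morphogenetic proteins, was the only transcript with 2 such loci. Its loci had a logASR of 2.79 (1.90 to 3.68) and 3.85 (2.91 to 4.79) and lay 1244 nt apart. The second was the higher, and the intervals overlapped. The other locus held forward Alu-like sequence in both TMEM59 and HNRNPU. Its logASR was 3.62 in TMEM59 and 4.20 in HNRNPU.

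Short motifs on the mRNA strand followed the direction of the Alu-like sequence. A run of 8 A was present in 30.1% of the 279 loci and in 9.17% of 6228 tiles of the same length taken from the same 3′-UTRs outside any locus. A run of 8 T was present in 20.4% of the loci and 12.9% of the tiles. By direction, the run of A was in 46.0% of forward and 5.00% of inverted loci, and the run of T in 2.67% and 48.8%. The polyadenylation hexamer AATAAA was present in 20.8% of the loci and 21.1% of the tiles. On the opposite strand the same hexamer was present in 15.4% and 28.9%. By direction, on the mRNA strand, it was in 26.0% of forward and 5.00% of inverted loci. It was in 28.1% of the loci without at least 30 nt of Alu-like sequence. Runs of A and T are each other's complement, so their counts on the 2 strands are exchanged. A match describes the letters and is no sign of use.

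Gene lists, 4 in all, were read against the loci. Among genes known for Alu repeats in the 3′-UTR from work on RNA editing, ARHGAP26, EIF2AK2, PSMB2 and XIAP had loci in this set. PSMB2, a proteasome subunit, had 3 loci with a logASR of 2.69, 3.16 and 2.89, of which loci 1 and 2 held forward and locus 3 inverted sequence. XIAP, the inhibitor of caspases, had an inverted locus at 1.52 and a forward locus at 1.84. ARHGAP26, which encodes a GTPase-activating protein, had an inverted locus at 2.26 and a forward one at 1.51.

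EIF2AK2 encodes PKR, a kinase that senses double-stranded RNA. Its first locus, of 1183 nt, held sequence in both directions and had a logASR of 1.74 (1.16 to 2.31), and its second, of 610 nt, was inverted with 1.55 (0.792 to 2.32). It was the single gene of this set among 25 for RNA editing and the binding or sensing of double-stranded RNA, of which MAVS, RIGI and SFPQ had loci elsewhere in the table. Of 17 genes of apoptosis and the p53 response, XIAP had loci in this set, and CASP10, CASP2, CFLAR, MDM2 and MDM4 had others. None of the 10 genes that the study names was in this set, although NQO1, NFE2L2 and DHODH had loci in the table.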

How the data were processed

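Per the labels, nascent RNA of 2 biological replicates of MDA-MB-231 was sequenced, with Bowtie2 2.3.5 and cutadapt 1.18 named in the submitters' processing notes. The authors mapped reads to 1 isoform per gene, tested 500-nt windows at a step of 250 nt by logistic regression, merged neighbouring windows and set the ends to the outer reads. For their final antisense RNAs they then required RNA polymerase II binding and enrichment in RNA-seq. Neither of these later steps was used here. The deposited logASR is a natural log odds ratio, and the table's other deposited columns hold p-values before (P) and after (q) adjustment. How replicates were combined is not given in the sources used here. The table gives no depth, and 0 columns of other samples were left aside.

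Each standard error was obtained by taking P for the result of a Wald test. It bounds the smallest of the 4 counts, which cannot be under 1 or over 4 divided by the squared error. Errors above 2 (0 of the loci described, 27 single loci) were left out of medians. Positions, taken to be 0-based, were converted to hg38 through the exons of GENCODE 44, whereas the study names GENCODE 28; a changed transcript could shift a locus. Alu-like sequence came from BLAST 2.17.0 against 7SL RNA (e-value 1e-05, at least 30 nt, alignments within 100 nt joined). Copies of 24-mers were counted on 24 chromosomes, and 10 or more counted as repeated. Python 3.11.15, numpy 2.4.6, pandas 2.3.3, scipy 1.17.1 and numba 0.67.0 were used.

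The calculations were tested on simulated data, and recovered the standard error in 998 of 998 tables, the placement in 500 of 500 transcripts, the direction in 200 of 200, the copies in 20 of 20 and the shared stretch in 50 of 50. No test was made, since the study selected its loci on logASR and q. Single 3′-UTR loci under the same criteria served for comparison. Named were the 10 transcripts with the most loci, the 3 highest and 3 lowest logASR, the 3 widest ranges, the 3 closest and 3 farthest pairs, the 5 highest without a repeated 24-mer, members of the gene lists and the longest shared sequences, 3 per direction with ties; pairs with intervals that do not overlap and exceptions to a threshold were named after their values were seen. The members and lists were chosen with earlier results of these data known. The shared repeat sequences themselves and 1 gene of the lists are not reported here. Alternatives for the criteria, thresholds and sequence settings were run.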

Additional observations from a re-analysis of the deposited data

How the results depend on the processing

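The number of loci stayed at 279 when loci had to lie wholly in the 3′-UTR or positions were read as 1-based. It was 263 with 2 or more such loci required on the transcript, 294 with ZNF genes kept and 315 when only exons of opposite-strand genes excluded a locus. The count past the stricter thresholds, 1 for logASR and 1e-05 for q, fell from 176 to 95 with a Bonferroni correction over all 2016 loci. Pairs of neighbours with intervals that did not overlap fell from 7 to 4 at 99%. For these 2 settings the shares over all loci and all pairs are not given here. With at least 100 nt of Alu-like sequence required, 161 loci held it in place of 247, and those with inverted sequence alone fell from 80 to 47. Neighbours that shared a 24-mer rose from 29 to 56 when either direction counted. The median logASR of 2.07 was 2.09 with 1 mean per transcript. The other 16 alternative counts and shares moved by less than 1.5 times. Among them, for stretches of at least 200 nt, an alternative chosen after seeing the data, 66.3% of forward and 52.3% of inverted stretches overlapped a locus.

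Leaving out a replicate was not run, since the table has no value per replicate. No paired analysis was possible because there is a single condition. The depth is unknown. The smallest read count of a median locus was 7 to 25, so that differences between neighbours of the size usually seen, 0.497, were within the intervals.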

Other observations

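TTL, which encodes tubulin tyrosine ligase, had 3 loci, with a logASR of 2.09, 1.97 and 1.97 from the coding sequence on. Loci 2 and 3, of 381 and 391 nt, had the same logASR and the same q of 5.09e-06 to the digits printed, and lay 1066 nt apart. Both held forward Alu-like sequence.

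The 31 loci on transcripts with several loci that could not be placed lay on 17 transcripts. Their logASR ranged from 0.579 to 3.36 with a median of 1.69. The stricter thresholds were passed by 14 of the 31, beside 60.9% of all loci in the table.

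The most Alu-like stretches in 1 of these 3′-UTRs were the 25 of SLC35E3, compared with a median of 4.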
